A study of Mikania micrantha with 15 samples.

Results

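Of the 41487 gene IDs measured in Mikania micrantha, 97 (0.234%) were shared by leaf and shoot apex and low in the other organs. This species is a climber in the daisy family that spreads quickly. The 97 were chosen by their measured level, in CPM, which is the reads of an ID scaled to its library's total. The lower of the leaf and shoot apex means had to be at least 5 CPM and at least 3 times the highest of the flower, root and stem means, with leaf and shoot apex less than 3-fold apart. By the same limits 558 IDs were high in leaf alone, 776 in shoot apex alone, and 285 in flower, leaf and shoot apex together.

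RNA sequencing covered leaf, shoot apex, flower, root and stem of wild-type vines, with 3 libraries per tissue and 15 in all. All groups shared the same growth, per the labels' protocols: cuttings were rooted in water to a root length of about 4 to 5 cm and then kept in Hoagland medium, a mineral nutrient solution, for 60 days in a growth room at 24 °C (16 h light, 8 h dark). The labels number the libraries of a tissue as replicates 1 to 3 and do not say whether they came from separate plants, so p-values cover no more than the variation from library to library, which may be technical. The IDs are locus tags that the files do not pair with gene names or products. The tissues could therefore not be checked against marker genes, no gene list by function could be counted, and IDs are described by their levels alone.

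The leaf is the main photosynthetic organ of a vine, built from mesophyll, veins and an epidermis covered by cuticle and hairs. The shoot apex holds the meristem, a group of dividing stem cells, and the youngest leaf primordia that it produces. Both organs thus contain leaf tissue, at different ages. In whole-organ RNA, fewer cells of a type and less RNA per cell cannot be told apart.

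Library totals were 7952050 to 12001006 counts in leaf, 11023970 to 12817396 in shoot apex, 9567064 to 11770796 in flower, 3777165 to 10015399 in root and 5445218 to 9721732 in stem. Some libraries stood apart from the others of their tissue. All 123 IDs that were at 50 CPM or more in flower and under 1 CPM in shoot apex, root and stem had a read in leaf replicate 1, where their median was 3.29% of the flower level, against 39 and 42 of them in leaf replicates 2 and 3, where the median was 0. In stem, 63.2% of the IDs averaging 5 CPM or more were highest in replicate 3, and in flower 53.6% were highest in replicate 1. The part of these libraries in the results below was not tested beyond leaving each out in turn, and leaf replicate 1 and stem replicate 3 together. Without leaf replicate 1 the limits gave 111 IDs, 91 of the 97 among them, and without stem replicate 3 they gave 108, with all 97 among them.

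The shared transcripts were of moderate abundance. Their median level was 24.0 CPM in leaf and 21.0 CPM in shoot apex, against 4.05 CPM in flower, 1.34 CPM in root and 2.84 CPM in stem. Together they held 0.363 ± 0.0457% of the counts in leaf (SD, n = 3) and 0.323 ± 0.0210% in shoot apex, against 0.0635 ± 0.0149% in flower, 0.0242 ± 0.00538% in root and 0.0526 ± 0.0134% in stem. At least 50 CPM was reached by 29 IDs in leaf and by 24 in shoot apex, and at least 100 CPM by 5 in each. These levels describe the choice itself and carry no test. For the same reason nothing is read from the calls between these and the other organs, made with edgeR's quasi-likelihood test, which models read counts. All 97 were called higher, with a change of 2-fold or more and an adjusted p under 0.05, in leaf and in shoot apex than in each of flower, root and stem, as were 1.36% of the 27055 genes tested.

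**Figure D1:**
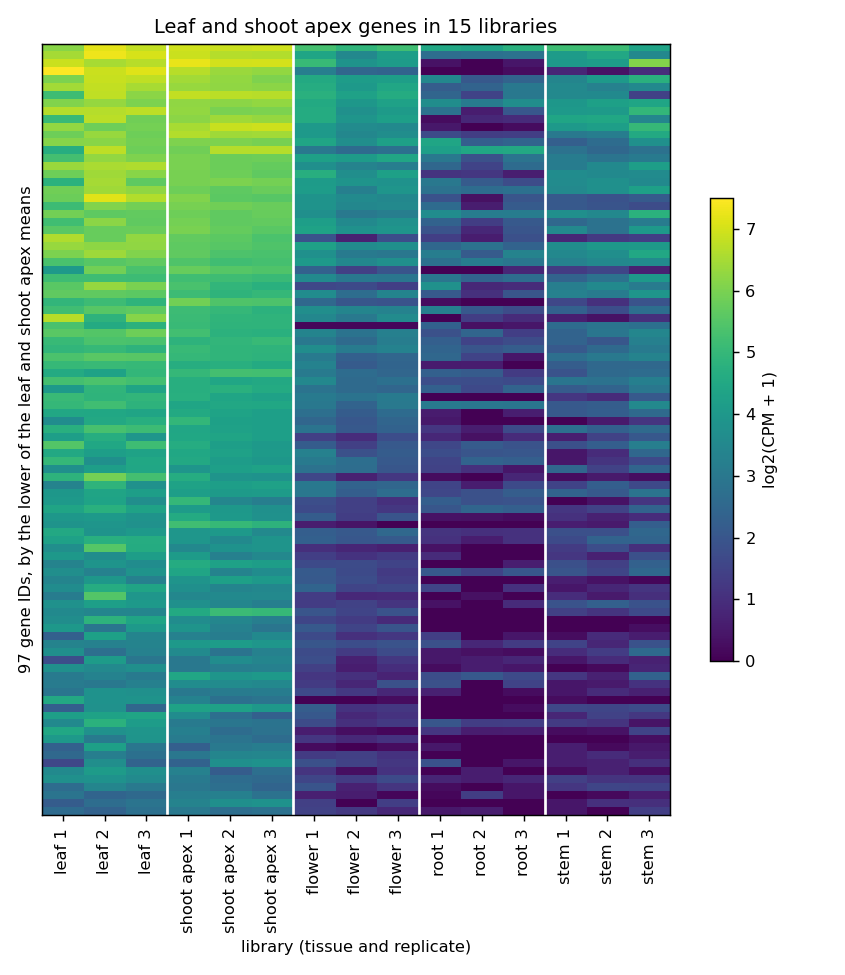
Level of each of the 97 IDs (rows, ordered by the lower of the leaf and shoot apex means) in each of the 15 libraries (columns), coloured by log2(CPM + 1). The 6 leaf and shoot apex columns are brighter than the 9 flower, root and stem columns, and root holds the most dark cells, with 11 IDs that had no read in any root library.

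In 96 of the 97 every leaf and shoot apex library lay above each of the 9 flower, root and stem libraries, as in 4.54% of all genes tested, and the choice makes this likely. The exception was E3N88_11555, named for having one of the largest coefficients of variation in leaf. It was at 2.01, 12.1 and 4.27 CPM in leaf replicates 1, 2 and 3 and at 4.12, 12.2 and 13.1 CPM in shoot apex. In flower it was at 2.55, 1.78 and 1.34 CPM, in root at 2.70, 0 and 0.366 CPM, and in stem at 0.551, 0.601 and 1.03 CPM. Leaf replicate 1 thus lay below flower replicate 1 and root replicate 1, while leaf replicate 2 and shoot apex replicates 2 and 3 stood well above every other organ.

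Most of the 97 stood close to the ratio limit. The lower of the leaf and shoot apex means was a median of 3.87 times the highest other organ. That ratio was under 4 for 55 IDs and at least 10 for 7. E3N88_29523 was just inside, with 43.2 CPM in leaf, 30.8 in shoot apex and 10.3 in flower, a ratio of 3.0004, and E3N88_26341 was just outside, at 60.8, 46.3 and 15.5 CPM and a ratio of 2.99. At the level limit, E3N88_33161 was inside with a leaf mean of 5.06 CPM and E3N88_16976 outside with 4.87 CPM. At the limit on leaf against shoot apex, E3N88_40481 was inside at 2.90-fold apart and E3N88_06772 outside at 3.01-fold apart. A further 255 IDs met the other limits with a ratio of 2 to 3.

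By the lower of the leaf and shoot apex means, the 2 highest IDs were E3N88_02795 and E3N88_08691. E3N88_02795 was at 71.2, 145 and 111 CPM in leaf and 123, 118 and 122 CPM in shoot apex, against 38.2, 28.7 and 35.9 CPM in flower, 21.2, 19.1 and 26.2 CPM in root and 34.9, 34.4 and 19.2 CPM in stem. It was expressed in every library, and its lowest leaf library, at 71.2 CPM, stood above its highest flower library. E3N88_08691 was at 89.0, 158 and 130 CPM in leaf and 119, 100.2 and 98.1 CPM in shoot apex, against 20.3, 10.3 and 17.1 CPM in flower, 5.39, 5.82 and 6.04 CPM in root and 16.3, 21.8 and 10.3 CPM in stem. For both IDs leaf replicate 1 was the lowest leaf library.

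Among IDs at 10 CPM or more in both organs, E3N88_15393 and E3N88_12637 had the largest ratios to the other organs. E3N88_15393 averaged 75.4 ± 22.0 CPM in leaf (SD, n = 3) and 46.3 ± 5.53 CPM in shoot apex, against 1.92 ± 1.13 CPM in flower, 1.56 ± 1.02 CPM in root and 1.24 ± 0.465 CPM in stem, and the ratio was 24.1. It was low in all 3 other organs, and no difference among flower, root and stem was found (edgeR, adjusted p = 0.756). That does not show equal levels, since the SEs of the log2 folds between these organs were 0.50 to 0.55. E3N88_12637 was at 180, 119 and 140 CPM in leaf and 103, 82.3 and 76.5 CPM in shoot apex, against 8.16, 4.60 and 4.23 CPM in flower and 0.735, 0.301 and 0.926 CPM in stem. Root held 1 read of it in 3 libraries, and the ratio of shoot apex to root was 1684 with a 95% exact interval of 302 to 66555, which covers counting error only.

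**Figure D2:**
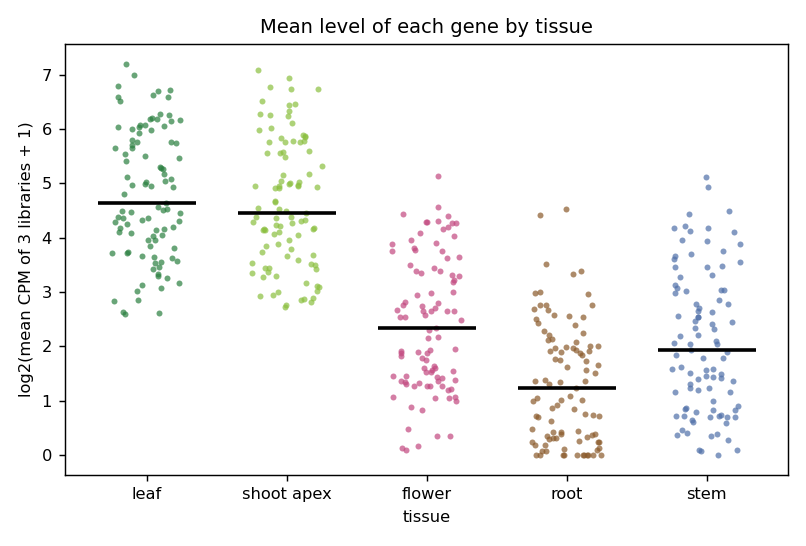
Mean level of each of the 97 IDs in each tissue, as log2(mean CPM of 3 libraries + 1); each point is 1 ID and the black bar is the median over the 97. Leaf and shoot apex have medians of 24.0 and 21.0 CPM, and among the other organs flower, at 4.05 CPM, lies above stem and root.

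Leaf and shoot apex held these transcripts at levels less than 3-fold apart, which the limit on their difference sets. The leaf mean was higher for 59 IDs and the shoot apex mean for 38, with a median leaf to shoot apex ratio of 1.17 and a range of 0.344 to 2.71. For 57 IDs the means were within 1.5-fold, and for 16 they were at least 2-fold apart. All 3 leaf libraries lay above all 3 shoot apex libraries for 30 IDs, against 22% of all genes tested, and all 3 shoot apex libraries lay above leaf for 13, against 42.3%. For the remaining 54 the libraries overlapped.

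With TMM scaling (the trimmed mean of M-values), leaf lay above shoot apex for 74 of the 97 and below it for 23 in the edgeR fit. The median log2 fold of leaf over shoot apex was 0.47 there and 0.22 with plain totals, against -0.06 and -0.29 over all genes. In that fit 18 of the 97 were called higher in leaf than in shoot apex and 1 lower. Over all genes tested the shares were 17.2% and 18.3%. These counts hung on the scaling. Plain library totals gave 7 and 2, with a shift of -0.24 in the median log2 fold over all genes. Without leaf replicate 1 they were 11 and 1, and the single ID called lower in leaf became 2 without leaf replicate 2 or without root replicate 1. Since the choice used this contrast, nothing is read from these counts.

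The called IDs with the largest fitted fold toward leaf were E3N88_06091 and E3N88_33582. E3N88_06091 was at 17.7, 19.0 and 20.3 CPM in leaf and 11.5, 5.62 and 3.90 CPM in shoot apex, a log2 fold change of 1.68 ± 0.46 (SE). The groups did not overlap, and shoot apex replicate 1 was the closest to leaf. E3N88_33582 was at 10.8, 26.4 and 16.6 CPM in leaf and 7.31, 6.71 and 6.17 CPM in shoot apex, a log2 fold change of 1.63 ± 0.41 (SE). Toward shoot apex, the only ID called was E3N88_40481, at 10.7, 9.67 and 9.73 CPM in leaf and 22.3, 33.7 and 31.3 CPM in shoot apex, a log2 fold change of -1.29 ± 0.27 (SE). Its leaf libraries varied little and each lay below each shoot apex library.

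**Figure D3:**
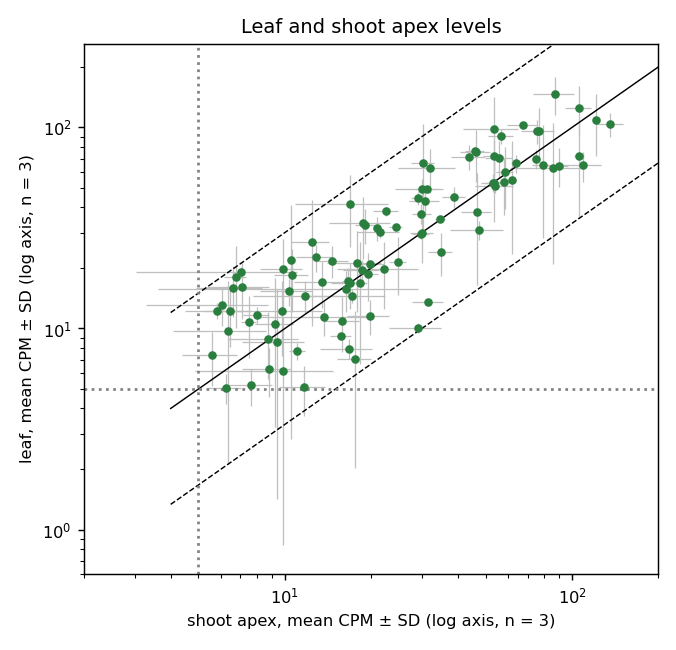
Leaf against shoot apex mean of the 97 IDs, in CPM on log axes, with bars of 1 SD over 3 libraries. The solid line marks equal levels, the dashed lines 3-fold differences and the dotted lines 5 CPM, the limits used to choose the IDs. 59 points lie above the solid line and 38 below it.

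The limits cap only the highest of the flower, root and stem means, so they do not fix which of these 3 organs is higher. That question was put to the same edgeR fit, with adjusted p-values over all 27055 genes tested. All 97 IDs passed the filter on low counts, through their leaf and shoot apex reads, so some were tested between organs that held few reads of them. The cap also keeps their counts in these organs low, which limits what can be called. The shares over all genes include IDs higher in flower, root or stem than the limits allow. The counts below and these shares are therefore set side by side as a description. Under 1 CPM in both organs compared were 7 IDs for flower and root, 5 for flower and stem and 23 for root and stem. Across flower, root and stem together, 68 of the 97 (70.1%) differed at an adjusted p under 0.05, against 72.3% of all genes tested, a share near the background. Flower was the highest of the 3 for 59 IDs, stem for 30 and root for 8. Root was the lowest for 71, stem for 18 and flower for 7, and E3N88_00938 had no read in root or stem. The commonest order was flower above stem above root, for 45 IDs, followed by stem above flower above root, for 26. These ranks use CPM from plain library totals, and the order of flower and stem hung on the scaling. In the TMM-scaled fit flower lay above stem for 52 IDs and below it for 45. The median log2 fold of flower over stem was 0.08 there and 0.35 with plain totals.

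Root was the organ with the least of these transcripts. At least 1 CPM was reached by 88 IDs in flower, 53 in root and 70 in stem. No read was found for 11 IDs in root, 1 in stem and 0 in flower. All 3 organs were at 1 CPM or more for 47 IDs, flower and stem but not root for 19, and flower alone for 18. For 5 IDs all 3 were under 1 CPM. Root was also the most shallowly sequenced organ. Replicate 2, with 3777165 counts, had no read for 31 of the 97, against 18 and 20 in replicates 1 and 3. A total of 3 counts over the root libraries correspond to 0.156 CPM. For the 11 IDs without a read, absence cannot be told apart from a level under about that bound.

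Flower held more than root of many of them. By the edgeR test, 51 of the 97 (52.6%) were called higher in flower than in root and 6 (6.19%) lower, against 27% and 17.9% of all genes tested. Of these, 1 of those called lower was under 1 CPM in both organs. The median log2 fold change was 1.33 over the 97 and 0.23 over all genes, and it was 1.32 with the 10 IDs that had no root read and over 3 flower reads set at their bound. Plain library totals raised the median of all genes by 0.39 and gave 59 called higher and 4 lower. The 6 called lower became 3 without root replicate 1.

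E3N88_33804 and E3N88_08161 had the largest fitted folds of flower over root among called IDs. Neither had a root read, so their folds are known as bounds only, and of the 79 IDs with over 3 root reads 2 had a CPM ratio above the bound of E3N88_33804 and 5 above that of E3N88_08161. E3N88_33804 was at 7.31, 6.17 and 7.40 CPM in flower, with no read in root, so flower was above root by a factor of at least 44.7 (adjusted p = 1.68e-06, edgeR). It was at 30.4 ± 2.11 CPM in leaf (SD, n = 3) and 21.4 ± 3.59 CPM in shoot apex, and its flower libraries differed little from one another. E3N88_08161 was at 3.23, 1.88 and 2.88 CPM in flower, with no read in root, and flower was thus higher by a factor of at least 17.1 (adjusted p = 0.000243, edgeR).

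In the other direction E3N88_24511 and E3N88_20616 had the largest fitted folds among called IDs with at least 1 CPM in root. E3N88_24511 had 3 reads in the 3 flower libraries and was at 4.09, 0.265 and 0.366 CPM in root, where replicate 1 was far above replicates 2 and 3. The fitted difference, flower over root, was -4.49 ± 0.87 on the log2 scale (SE; edgeR, adjusted p = 0.000479). It fell short of a call without root replicate 1, at -2.04 (edgeR, adjusted p = 0.109). The fitted values rest on few flower reads, and the ratio of root to flower in summed reads was 24.2 with a 95% exact interval of 7.75 to 122. E3N88_20616 was at 6.97, 5.12 and 5.76 CPM in flower and 17.8, 21.2 and 21.9 CPM in root. The groups did not overlap, and flower differed from root by a log2 fold of -2.16 ± 0.39 (SE; edgeR, adjusted p = 0.000255).

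Between flower and stem the IDs differed in both directions. Called higher in flower were 16 (16.5%) and lower 9 (9.28%), against 24.9% and 15.4% of all genes tested. Under 1 CPM in both organs was 1 of the 9. The median log2 fold change was 0.08 over the 97 and 0.17 over all genes. With plain library totals, which moved the median of all genes by 0.30, the counts were 18 and 3. Without stem replicate 3 they were 18 and 4, so the number called lower in flower rested in part on that library.

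E3N88_00938 and E3N88_08161 had the largest fitted folds of flower over stem among called IDs. E3N88_00938 was at 1.95, 1.46 and 0.864 CPM in flower with no read in stem or root, which puts flower above stem by a factor of 10.4 or more (edgeR, adjusted p = 0.00044). Of the 93 IDs with over 3 stem reads, 1 had a CPM ratio above that bound, E3N88_21401 at 15.2, which was singled out after its values were seen. The leaf libraries of E3N88_00938 were at 11.7, 27.8 and 19.7 CPM and its shoot apex libraries at 11.5, 9.83 and 8.16 CPM. E3N88_08161 had 2 reads in stem, both in replicate 3, and the ratio of flower to stem was 29.6 with a 95% exact interval of 7.94 to 248.

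Toward stem, E3N88_24511 and E3N88_41235 had the largest fitted folds among called IDs with at least 1 CPM in stem. E3N88_24511 was at 0.0850, 0.105 and 0.0961 CPM in flower and 5.33, 6.46 and 5.76 CPM in stem. The log2 fold was -6.06 ± 0.79 (SE; edgeR, adjusted p = 2.61e-05). It was thus close to undetected in flower while stem, leaf at 30.01 ± 8.92 CPM (SD, n = 3) and shoot apex at 29.99 ± 2.78 CPM carried it in every library. E3N88_41235 was at 0.510, 0.314 and 0 CPM in flower and 0.551, 0.451 and 3.70 CPM in stem. Flower differed by a log2 fold of -2.79 ± 0.77 (SE; edgeR, adjusted p = 0.00788). Stem replicate 3 alone stood apart, and without it the value of -1.25 was no longer called (edgeR, adjusted p = 0.203).

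Root held less than stem of a large share of the IDs. Called higher in root were 2 (2.06%) and lower 41 (42.3%), against 13.1% and 15.4% of all genes tested. Of the 41, 6 were under 1 CPM in both organs and 35 reached 1 CPM in stem. The median log2 fold change was -1.17 over the 97 and 0 over all genes, and -1.13 with the 7 IDs at 0 in root and over 3 reads in stem set at their bound. Plain library totals moved the median of all genes by -0.05 and gave 2 called higher and 43 lower. The 6 root and stem libraries were also fitted alone, with the filter on low counts, the scaling and the p adjustment applied to them only. In that fit 2 were called higher and 22 lower, and any ID that failed its filter counts as not called. Which of these changes lowered the count from 41 was not tested. Without stem replicate 3 the count called higher in root was 5.

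E3N88_13851 and E3N88_20616 were the 2 IDs called higher in root. E3N88_13851 was at 3.69, 2.65 and 2.74 CPM in root and 0, 0.301 and 1.23 CPM in stem. Root was higher by a log2 fold of 2.47 ± 0.71 (SE; edgeR, adjusted p = 0.0128). The groups did not overlap, and without stem replicate 3 the fitted value was 4.06, which rests on 2 stem reads. E3N88_20616, at 17.8, 21.2 and 21.9 CPM in root, was at 6.06, 4.66 and 5.97 CPM in stem, with a log2 fold of 1.95 ± 0.40 (SE; edgeR, adjusted p = 0.00114).

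Toward stem the largest fitted folds were those of E3N88_33804 and E3N88_40481, neither of which had a root read, so they are known as bounds only. E3N88_33804 was at 1.29, 0.902 and 3.29 CPM in stem, above root by a factor of at least 11.7 (edgeR, adjusted p = 6.95e-05). E3N88_40481 was at 1.65, 1.20 and 2.16 CPM in stem, and root lay below this by a factor of 10.7 or more (edgeR, adjusted p = 2.68e-05). Of the 79 IDs with over 3 root reads, 4 had a CPM ratio of stem to root above the first bound and 6 above the second. The largest such ratio was 152, that of E3N88_14060, which was singled out after its values were seen. It was at 0.300, 0 and 0.366 CPM in root, from 5 reads, and at 15.8, 16.7 and 68.6 CPM in stem, where replicate 3 was far above replicates 1 and 2. The stem levels of E3N88_33804 and E3N88_40481 were far under their leaf and shoot apex levels. The 3 comparisons among flower, root and stem share libraries, so their counts are not independent of one another.

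**Figure D4:**
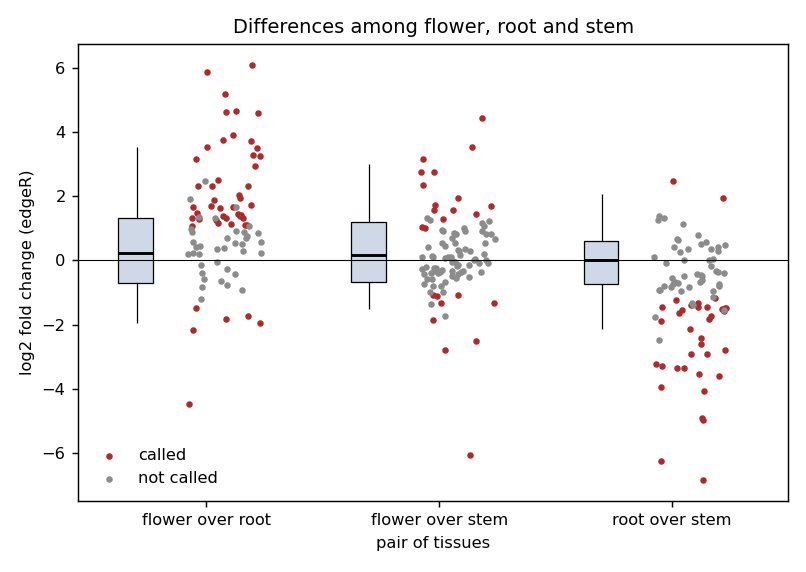
Fitted log2 fold change (edgeR) of the 97 IDs for flower over root, flower over stem and root over stem; red points were called (2-fold or more, adjusted p under 0.05), and grey points were not. Boxes at the left give the median and quartiles of all 27055 genes tested, with lines to the 10th and 90th percentiles. The 11, 1 and 11 IDs with no read in one of the organs are not drawn. The points lie mostly above 0 for flower over root and mostly below 0 for root over stem.

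Replicates of an organ did not hold the shared transcripts evenly, which the choice by means did not fix. Flower replicate 1 was the highest flower library for 80 of the 97 (82.5%), against 53.6% of IDs at a flower mean of 5 CPM or more. Shoot apex replicate 1 was the highest of its organ for 71 (73.2%), against 41.6% of such IDs in shoot apex. Leaf replicate 2 was the highest leaf library for 59 (60.8%), against 49.7%, and stem replicate 3 the highest stem library for 64 (66.0%), against 63.2%. All 97 reached a mean of 5 CPM in leaf and in shoot apex. In flower 45 did and in stem 34, so there the shares compare IDs at unlike levels. The share of counts that the 97 held was 0.0796, 0.0502 and 0.0606% in flower replicates 1, 2 and 3, and 0.0431, 0.0468 and 0.0679% in stem. Cause was not tested for any of these differences. They set how many IDs met the limits, which gave 121 without flower replicate 1 and 79 without flower replicate 2.

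The spread between leaf replicates differed widely among the IDs. The median coefficient of variation was 21.2% in leaf and 13.1% in shoot apex, against 23.3% and 7.51% over all IDs averaging 5 CPM or more in that organ. E3N88_31144 had one of the 2 largest coefficients of variation in leaf, at 7.92, 43.7 and 14.2 CPM, while its shoot apex libraries were at 10.2, 10.7 and 10.5 CPM. Leaf replicates 2 and 3 stood above every shoot apex library and leaf replicate 1 below. Among IDs with a stem mean of 1 CPM or more, the largest coefficients of variation in stem were those of E3N88_03812, at 0.367, 0.902 and 4.73 CPM, and of E3N88_41235, given above, and in both replicate 3 was the high library.

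The departures of leaf replicate 1 and of stem replicate 3 from their groups were correlated across the IDs, though often opposite in sign. Of the 22 IDs whose highest leaf library was replicate 1, 20 were highest in stem replicate 3 among the stem libraries and 0 were lowest there. Of the 24 with leaf replicate 1 in the middle, 21 were highest in stem replicate 3 and 1 was lowest there. Of the 51 whose lowest leaf library was replicate 1, 23 were highest in stem replicate 3 and 12 were lowest there. Where stem replicate 3 tied with another replicate at 0 CPM, it was not counted as lowest. These counts include the 27 IDs under 1 CPM in stem, and no such count was made over other IDs. Over the 70 IDs with at least 1 CPM in both organs, the departure of leaf replicate 1 from leaf replicates 2 and 3, in log2(CPM + 1), and that of stem replicate 3 from stem replicates 1 and 2 had a Pearson's r of 0.63 and a Spearman's rho of 0.60. Over 20715 other IDs with at least 1 CPM in both, they were 0.26 and 0.22. The 2 departures had the same sign in 32 of the 70. Leaf replicate 1 was lower and stem replicate 3 higher in 36, and the reverse held in 2. For leaf replicate 1 with replicate 1 of shoot apex, flower and root, Pearson's r among the 97 was 0.39, -0.04 and -0.18, over IDs at 1 CPM or more in both. These correlations are across IDs that share the same 6 libraries, and IDs are not independent replicates, so they are a description with no test.

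**Figure D5:**
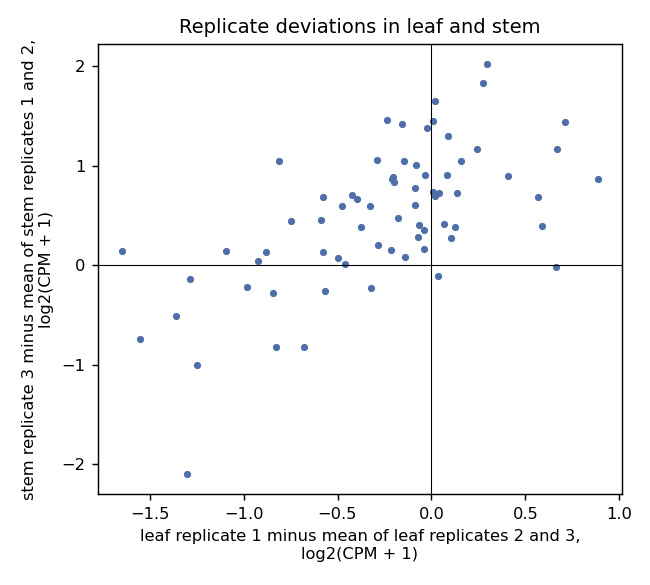
Departure of leaf replicate 1 from the mean of leaf replicates 2 and 3 (horizontal) and of stem replicate 3 from the mean of stem replicates 1 and 2 (vertical), in log2(CPM + 1), for the 70 of the 97 IDs with at least 1 CPM in both organs. Most points lie above 0 on the vertical axis, 57 of 70, and those lowest in leaf replicate 1 include the ones lowest in stem replicate 3.

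The 97 were scattered over the ID numbers, apart from small groups. The median gap between successive ones was 195.5 numbers. Of the 194 ID numbers next to one of the 97, 2 (1.03%) were themselves among them, where the 97 make up 0.234% of all IDs. Those are E3N88_16834 and E3N88_16835, 1 pair counted from each side, so nothing is read from that share. ID order was not matched to a genome here, so it is given as numbering and not as position, and reads shared between near-identical copies could not be checked.

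E3N88_16834 was at 59.4, 49.1 and 51.0 CPM in leaf and 56.0, 49.6 and 53.3 CPM in shoot apex, against 12.3, 7.21 and 8.16 CPM in flower, 11.5, 7.94 and 7.86 CPM in root and 12.3, 10.4 and 26.5 CPM in stem. E3N88_16835 was at 57.0, 80.8 and 55.9 CPM in leaf and 98.1, 85.3 and 86.3 CPM in shoot apex, against 15.6, 10.03 and 11.7 CPM in flower, 2.30, 1.59 and 1.65 CPM in root and 7.16, 7.96 and 22.4 CPM in stem. Both had stem replicate 3 as their highest stem library. They parted in root, where the log2 fold change of root over stem was -0.73 ± 0.28 (SE; edgeR, adjusted p = 0.0538) for E3N88_16834 and -2.61 ± 0.36 (SE; edgeR, adjusted p = 3.37e-05) for E3N88_16835, a difference between IDs that was not itself tested. The number on either side held no shared ID. E3N88_16833 averaged 72.9 CPM in leaf and 23.6 CPM in shoot apex but also 73.7 CPM in root, and E3N88_16836 had 0 reads outside flower.

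The pair belongs to a stretch of 11 ID numbers that holds 4 of the 97. The other 2, E3N88_16825 and E3N88_16828, were chosen after their values were seen. E3N88_16825 averaged 17.3 CPM in leaf and 16.6 CPM in shoot apex, against 5.31 CPM in flower, 2.77 CPM in root and 4.57 CPM in stem. E3N88_16828 had the largest ratio of the 97. It had 466 reads in leaf and 253 in shoot apex, against 2 in flower, 0 in root and 1 in stem. Set against a bound of 3 counts over the root libraries, where it had no read, it was at least 45.5-fold higher in shoot apex than in root. Flower and stem entered the ratio at their measured means, without an interval, so 45.5 is not a bound for these 2 organs. The same ratio to the highest other organ was 3.12 for E3N88_16825, 3.23 for E3N88_16834 and 5.16 for E3N88_16835.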

How the data were processed

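The authors deposited raw read counts per gene ID, whole numbers that were not normalized, with 1 column for each of 15 libraries. Alignment used HISAT2, per the submitters' processing notes. Its version, how reads were counted (strand, multiple hits) and the genome and annotation used are not given in the sources used. This leaves values of near-identical, overlapping and antisense genes uncertain.

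CPM were computed from plain library totals. The IDs and the lists were chosen with earlier results of these data known. Tests used edgeR 4.0.16 in R 4.3.3: filterByExpr on tissue, which kept 27055 IDs holding 99.9% of the counts, TMM scaling, 1 term per tissue over all 15 libraries, and glmQLFit with glmQLFTest. P-values are two-sided and adjusted by Benjamini-Hochberg across all IDs tested in a contrast. A call needs a change of 2-fold or more and an adjusted p under 0.05. SEs are the log2 fold change over the square root of its F. The procedure was tested on simulated counts with known changes in flower, set at each gene's mean over all 15 libraries. That setting did not copy the low flower, root and stem levels of the chosen IDs, so nothing is read from it for them. Where an organ had no read, a fold is a bound against 3 counts over its 3 libraries; with 1 to 3 reads the ratio has an exact (Clopper-Pearson) interval. Both cover counting error only. Replicates differed by more than sampling noise in every pair (chi-square over degrees of freedom 2.07 to 69.0).

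IDs were named by rule, at most 2 in each direction of a comparison: the 2 highest by the lower of the leaf and shoot apex means, the 2 with the largest ratio at 10 CPM or more, the largest fitted folds among calls with at least 1 CPM in the higher organ, those nearest each limit, the longest run of numbers and the 2 with the largest coefficient of variation in leaf and in stem (stem mean of 1 CPM or more). The alternatives were RLE factors, plain totals, DESeq2 1.42.0, no filter, other fold and choice limits, a replicate term, fits to the compared organs alone and leaving out each library.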

Additional observations from a re-analysis of the deposited data

How the results depend on the processing

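The number of IDs chosen hung on the ratio limit. A ratio of 2 gave 352, of which 319 had no overlap between their leaf and shoot apex libraries and the others, and a ratio of 5 gave 26, all 26 without overlap. The share of counts they held was then 1.77 and 0.0812% in leaf, 1.48 and 0.0673% in shoot apex, 0.488 and 0.00631% in flower, 0.212 and 0.00195% in root and 0.397 and 0.00526% in stem. With TMM-scaled CPM in the choice 83 were chosen, 72 of them shared with the 97, and the share was 0.286% in leaf, 0.280% in shoot apex, 0.0170% in root and 0.0375% in stem. The share in shoot apex was 0.3004% both with a minimum of 10 CPM and with leaf and shoot apex under 2-fold apart, and 0.362% with no such limit, where leaf held 0.453%. When each library was left out of the choice in turn, 79 to 121 IDs were chosen, 78 to 120 of them without overlap, and 53 of the 97 were chosen every time. The share then ranged from 0.289 to 0.448% in leaf, 0.259 to 0.400% in shoot apex, 0.0499 to 0.0763% in flower, 0.0173 to 0.0327% in root and 0.0405 to 0.0684% in stem.

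Shares over all genes were computed only for the main fit with its 2-fold limit. Counts under other settings, in this section and above, therefore have no such share beside them. With a fold limit of 4, 29 IDs were called higher and 2 lower in flower than in root. The counts were 7 higher and 3 lower in flower than in stem, and 1 higher and 25 lower in root than in stem. In leaf against shoot apex 0 were called in either direction, which choosing means less than 3-fold apart makes likely. For that pair the count at an unadjusted p under 0.05 was 37 higher and 2 lower, and DESeq2 at 2-fold called 24 and 1. At a fold limit of 4, 37 were called in leaf and shoot apex over every other organ. With no fold limit 30 were called higher in leaf than in shoot apex. Plain library totals gave 3 lower in flower than in stem, and 7 higher and 2 lower in leaf than in shoot apex. DESeq2 gave 4 higher in root than in stem. Fits to the organs compared alone gave 5 lower in flower than in stem and 22 lower in root than in stem. In these fits any ID that failed the filter on low counts in those organs counts as not called. Without leaf replicate 1 and stem replicate 3 together, chosen after seeing the data, 4 were lower in flower than in stem and 6 higher in root than in stem. The cause was not tested.

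With each library left out, the counts were 44 to 54 higher and 3 to 6 lower in flower than in root, 11 to 18 higher and 4 to 12 lower in flower than in stem, 2 to 5 higher and 37 to 43 lower in root than in stem, and 11 to 24 higher and 1 to 2 lower in leaf than in shoot apex. Whether the replicate numbers pair the libraries could not be settled, since 3 libraries per tissue are too few and the labels do not say what a number marks. Of 30 correlations between same-numbered libraries of 2 tissues, 5 were over 0.1, and all lay from -0.29 to 0.32. For leaf with shoot apex they were 0.23, 0.32 and -0.13 in replicates 1, 2 and 3. Of 15 libraries, 4 correlated best with one of their own number. With a replicate block 48 were called higher in flower than in root, 41 lower in root than in stem and 14 higher in leaf than in shoot apex, and each count stayed within 1.5 times its value. Root was the most shallowly sequenced organ, and 44 of the 97 were under 1 CPM there, though CPM is scaled to library totals.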
